A study of Mus musculus with 22 samples.

Results

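The 5 libraries compared carry different names for what the labels describe as the same cells. They are the libraries of wild-type mouse E14 embryonic stem cells (ESCs) in serum medium with LIF, 5 of 22 libraries in the series, and they were chosen by their labels and not by any measured value. 3 libraries are titled ESC and are called E14_ESC here, and 2 are titled TG2A.NG.PB.ESC and are called TG2A_ESC. For both sets the labels give the cell line E14, the cell type ESC, a wild-type genotype and a culture with LIF, and no agent, allele or culture date that differs between them. The labels do not spell out the letters in TG2A.NG.PB, so what that name records beyond the shared description is not known here. The study asked how the Polycomb methyltransferase EZH2 keeps pluripotent cells from a primitive endoderm fate, and these sets are its wild-type E14 libraries without the 2i inhibitors. The question here is how far nominally equal control sets differ. Set beside them in places are 3 libraries of Ezh2-null E14 cells titled EZH2KO.10SL and 2 of the same line titled rescued, all in the LIF culture, and 2 wild-type libraries of another ESC line, C57. The labels do not say that replicates came from separate cultures, so p-values measure only a spread between replicate libraries, which may be technical. That spread is pooled over all 22 libraries of the series and is not that of these 5 alone.

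Mouse ESCs self-renew in medium with LIF, a cytokine that acts through STAT3, and the transcription factors Pou5f1 (Oct4), Sox2 and Nanog hold the pluripotent state. Cultures in serum with LIF are known to be mixed: a small share of cells moves towards other fates, among them primitive endoderm, the extraembryonic layer marked by Gata6, Gata4 and Sox17. ESC metabolism also responds to culture, since the oxygen-sensing HIF factors switch on glycolytic and hypoxia genes and SREBP factors switch on lipid synthesis. In bulk RNA, fewer cells of a type and less RNA per cell cannot be told apart.

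The 5 libraries carried the defining markers of their label. Pou5f1 stood at 873 to 1060 CPM (counts scaled to the library total) in E14_ESC and at 1430 and 1860 in TG2A_ESC, and Sox2, Nanog, Zfp42 and Esrrb were all above 270 CPM in every library. Hprt, the purine salvage gene that the widely used E14TG2a subline lacks, was at 0.299 to 0.734 CPM in the 5 libraries, against 140 and 164 CPM in the 2 C57 ESC libraries of the series. Ezh2 itself was level, at 173, 181 and 184 CPM in E14_ESC and 194 and 200 in TG2A_ESC (log2 difference -0.13, standard error 0.14, adjusted p = 0.551). The Y-linked helicase gene Ddx3y was present in all 5 libraries at 39.3 to 61.1 CPM.

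Library totals were 16185614, 16205558 and 26280949 estimated counts in E14_ESC and 19394569 and 20222379 in TG2A_ESC. Over the 10892 genes averaging 5 CPM or more, 15 to 86 genes differed by more than 2-fold between any pair of E14_ESC libraries, 284 between the TG2A_ESC libraries, and 342 to 1095 between the sets. TG2A_ESC replicate 2 stood apart: it differed from the E14_ESC libraries by more than 2-fold at 866 to 1095 genes, and TG2A_ESC replicate 1 at 342 to 425. No pair of replicates agreed within sampling noise, so none is a mere recount of another, and each library is treated as 1 sample. That check cannot show whether replicates came from separate cultures. Ribosomal protein genes took 5.22 to 6.28% of counts in E14_ESC and 6.96 and 7.2% in TG2A_ESC.

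The sets also differed by transcript length. Sorted into 10 equal groups by length, the shortest genes (63 to 957 nt) had a median log2 difference of -0.40 and the longest (5419 to 123179 nt) a median of 0.47, where a positive value means higher in E14_ESC. In the shortest group 35 genes were called higher in E14_ESC and 515 higher in TG2A_ESC. In the longest group the counts were 657 and 31. In single libraries, the level of the shortest 20% of genes less that of the longest 20% was -0.35, -0.30 and -0.11 (centred log2) in E14_ESC and 0.40 and 0.57 in TG2A_ESC, so the sets did not overlap. The same index was 0.58 to 0.78 in the Ezh2-null libraries and -0.32 and -0.28 in the rescued ones. Groups whose counts move with it are also given with the smooth length trend of each library removed, a setting added after the data were seen. Its part in each result beyond that refit was not tested.

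**Figure D1:**
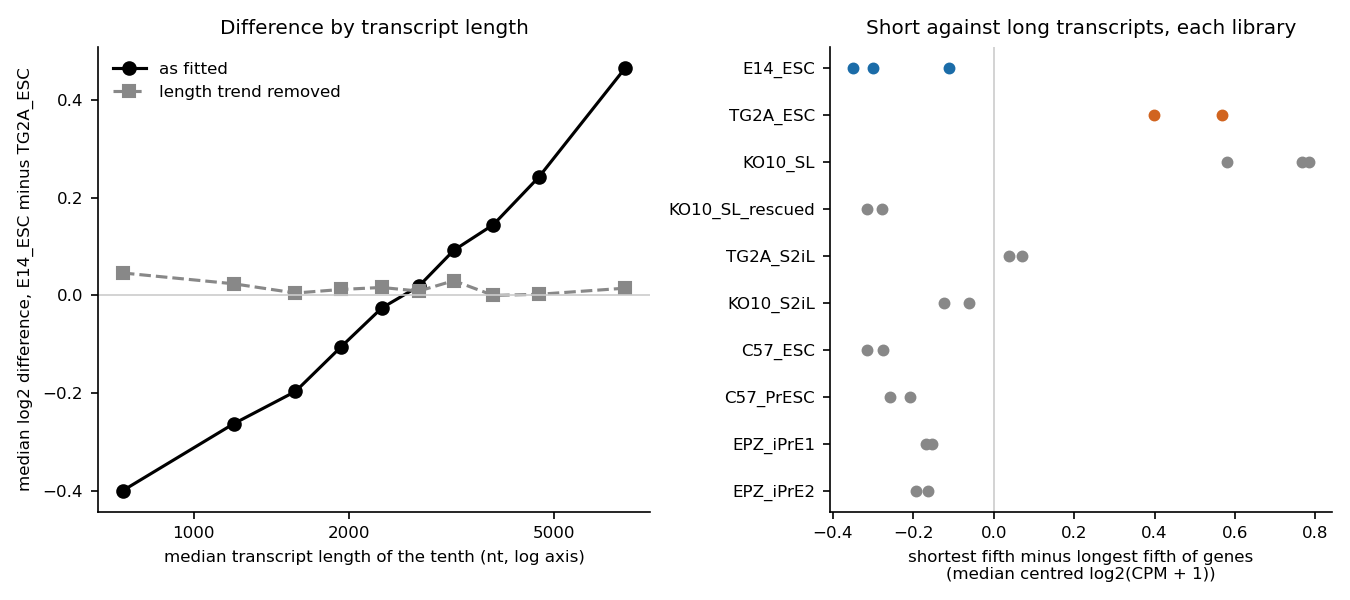
Left, the median log2 difference (E14_ESC minus TG2A_ESC) of 10 groups of genes against their median transcript length in nt on a log axis, as fitted (circles) and with the length trend removed (squares); the fitted line climbs from -0.40 to 0.47. Right, 1 point per library of the series, the median centred log2(CPM + 1) of the shortest 20% of genes minus that of the longest 20%; the 3 E14_ESC points lie below 0 and the 2 TG2A_ESC points at 0.40 and 0.57.

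Of 17547 genes tested with edgeR's quasi-likelihood test, 4271 (24.3%) passed an adjusted p of 0.05. Of these, 1972 (11.2%) were higher in E14_ESC and 2299 (13.1%) were higher in TG2A_ESC, and 603 and 435 of them differed by at least 2-fold. These shares are the background against which each gene list is read. With the length trend removed 2640 genes (15.0%) were called, 1137 (6.48%) higher in E14_ESC and 1503 (8.57%) higher in TG2A_ESC, and 2098 genes were called in the same direction in both fits. Without TG2A_ESC replicate 2 the calls fell to 1675 of 18500 genes (9.05%), 749 (4.05%) higher in E14_ESC and 926 (5.01%) higher in TG2A_ESC. In that fit the remaining TG2A_ESC library is assumed to vary like the other groups. Without TG2A_ESC replicate 1 the count was 4090.

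**Figure D2:**
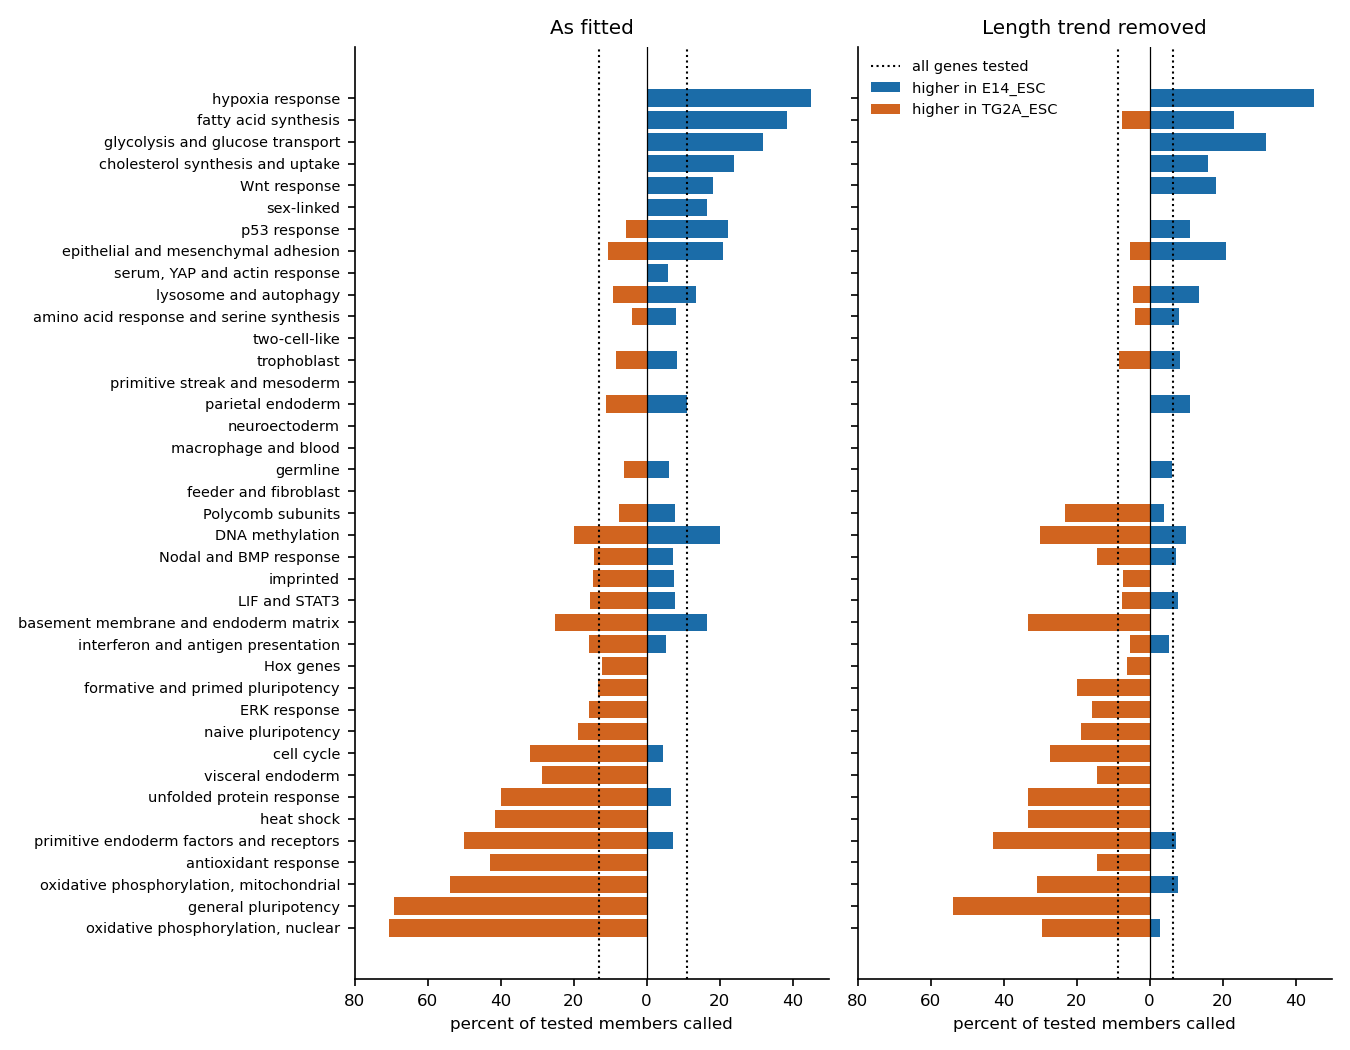
Percent of the tested members of each gene list that were called higher in E14_ESC (bars to the right) or higher in TG2A_ESC (bars to the left), as fitted and with the length trend removed, for the 39 lists with at least 5 tested members. Dotted lines mark all genes tested; hypoxia genes reach farthest to the right in both panels, and the nuclear oxidative phosphorylation list shrinks from 24 to 10 genes higher in TG2A_ESC.

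Primitive endoderm regulators were higher in TG2A_ESC, at low levels. Of 14 primitive endoderm factors and receptors, 7 were higher in TG2A_ESC and 1 was higher in E14_ESC, with a list median of -1.60 against 0.01 for all genes. Gata6, an early driver of this fate, had 1.56, 0.777 and 0.896 CPM in E14_ESC and 3.28 and 12.3 in TG2A_ESC (log2 difference -2.88, standard error 0.67, adjusted p = 0.0053). Sox17, which acts beside the Gata factors, rested on 3, 4 and 7 counts in E14_ESC and on 30 and 84 in TG2A_ESC (log2 difference -3.64, standard error 0.84, adjusted p = 0.00483). Sox7, its relative, was at 0.478 to 0.599 CPM in E14_ESC and at 2.29 and 3.3 in TG2A_ESC. In all 3 genes both TG2A_ESC libraries lay above all E14_ESC libraries. The sets did not overlap in 4225 of the 4271 called genes, so this adds little to the calls.

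Gata4 (-2.50), the forkhead gene Foxq1 (-2.68), the PDGF receptor gene Pdgfra (-2.04) and Amn (-1.54), which encodes a partner of the uptake receptor cubilin, were the others higher in TG2A_ESC, as log2 differences. Hnf4a, a nuclear receptor of later endoderm, went the other way, with 5.57, 6.58 and 7.46 CPM in E14_ESC and 1.2 and 0.839 in TG2A_ESC (log2 difference 2.68, standard error 0.60, adjusted p = 0.0038). The uptake receptor gene Lrp2, the most abundant gene of the list, was not called (98.8 to 150 CPM in E14_ESC, 98.7 and 78.2 in TG2A_ESC). The summed level of the list therefore did not follow the count, at 123 to 179 CPM in E14_ESC and 155 and 138 in TG2A_ESC.

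The calls of the primitive endoderm genes depended on TG2A_ESC replicate 2. Without it Amn alone of the 14 was called, while the log2 differences of Gata6, Gata4, Sox17, Sox7, Foxq1 and Pdgfra were -1.62, -2.02, -2.71, -2.0, -2.34 and -1.17 and did not pass. Without TG2A_ESC replicate 1, 6 genes were called higher in TG2A_ESC, and with the length trend removed 6 were. Amn was lost in the latter (adjusted p = 0.0992).

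**Figure D3:**
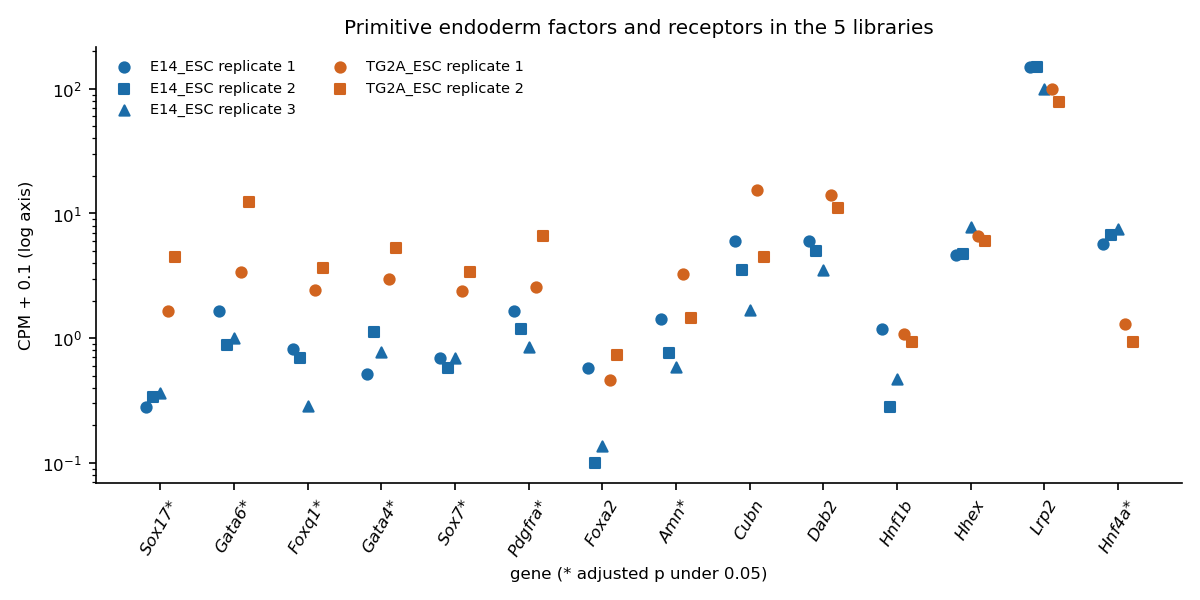
Level of the 14 primitive endoderm factors and receptors in each library, as CPM + 0.1 on a log axis, with genes ordered by their log2 difference and a star at an adjusted p under 0.05. Gata6 in TG2A_ESC replicate 2 reaches 12.3 CPM, and Hnf4a is the starred gene with all E14_ESC points above the TG2A_ESC points.

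Of 12 genes of the basement membrane and endoderm matrix, 3 were higher in TG2A_ESC and 2 in E14_ESC, with a median of -0.09. The list's summed level did not separate the sets, at 2313 to 2643 CPM in E14_ESC and 2128 and 2545 in TG2A_ESC. Collagen IV genes were higher in TG2A_ESC: Col4a2 had 16.4, 16 and 14.3 CPM in E14_ESC and 39.4 and 44.4 in TG2A_ESC (log2 difference -1.44, standard error 0.31, adjusted p = 0.00346), and Col4a1 differed by -1.04. Sparc, which encodes a matrix protein, was at 87 to 114 CPM in E14_ESC and at 180 and 214 in TG2A_ESC (log2 difference -1.02). Sparc and Col4a2 were also called without TG2A_ESC replicate 2 and with the length trend removed. Nid2 (nidogen, 0.36) and P4ha1 (collagen prolyl hydroxylase, 0.63) were higher in E14_ESC, and neither was called with the length trend removed.

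Apoe, an apolipoprotein gene of visceral endoderm that ESCs also express, was a difference of 1 library. It stood at 163, 218 and 228 CPM in E14_ESC and 144 in TG2A_ESC replicate 1, and at 1010 in replicate 2. Its fitted log2 difference was -1.5 (standard error 0.45, adjusted p = 0.0224), and without TG2A_ESC replicate 2 it was 0.50 (adjusted p = 0.237). The secreted visceral endoderm products Ttr and Apoa4 had no counts in any of the 5 libraries, and Afp had none in 4 of them. Of the visceral endoderm list, 7 of 12 genes could be tested. Apoe and the Wnt antagonist Dkk1 were called, the latter on at most 34 counts per library. That share is near the 24.3% of all genes, so it describes single genes and not the list.

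Genes of the parietal endoderm, the other extraembryonic endoderm layer, were called in 2 of 9 cases, Krt19 (1.58) and Snai1 (-0.96), near the 24.3% of all genes. The list's summed level was 73.4, 75.2 and 71.6 CPM in E14_ESC and 109 and 193 in TG2A_ESC, a difference that was not tested. Other fates showed few calls. No gene of the lists for primitive streak and mesoderm (12 tested), neuroectoderm (8), 2-cell-like cells (13), feeder cells and fibroblasts (16) or macrophages and blood (7) was called by edgeR. At an unadjusted p of 0.05, 1, 3, 2, 0 and 0 of them passed, and DESeq2 called 1, 1, 0, 0 and 0. The streak factor T was at 0.299 to 1.02 CPM and the trophoblast factor Cdx2 at 0.157 to 1.02 CPM over the 5 libraries. Zscan4 genes, which flicker on in a few ESCs at a time, summed with the rest of their list to 44.7, 22.3 and 3.7 CPM in E14_ESC and 27.4 and 9.85 in TG2A_ESC, so they spread as widely within a set as between sets. Csf1r, Adgre1, Tyrobp and Fcer1g, defining macrophage genes, were at 0 in all 5 libraries, and the fibroblast genes Lum, Dcn and Postn had at most 0.052 CPM. Among 12 trophoblast genes 2 were called, a share below the 24.3% of all genes. They went in opposite directions: Tfap2c was higher in E14_ESC (1.30) and Esx1 higher in TG2A_ESC (-1.19), as log2 differences.

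Several genes tied to pluripotency were higher in TG2A_ESC, and the central naive factors were not called. Of 13 general pluripotency genes, 9 were higher in TG2A_ESC and none in E14_ESC, with a median of -0.52. Pou5f1 had 896, 873 and 1060 CPM in E14_ESC and 1430 and 1860 in TG2A_ESC (log2 difference -0.80, standard error 0.17, adjusted p = 0.00331). Dppa2, a chromatin factor of early embryos, had 84.4, 63.9 and 65 CPM in E14_ESC and 122 and 189 in TG2A_ESC (log2 difference -1.13, standard error 0.16, adjusted p = 0.000181). Gdf3, a TGF-beta family ligand, and Zfp57, which protects imprints, differed by -1.01 and -1.0. After removal of the length trend 7 of the 13 were called and Pou5f1 differed by -0.53 (adjusted p = 0.0365). Without TG2A_ESC replicate 2, 4 were called and Pou5f1 was not (-0.59, adjusted p = 0.0954).

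Sox2 (0.15), Nanog (0.00), Zfp42 (-0.28), Esrrb (0.09) and Klf4 (-0.15) had log2 differences that did not pass the test. Nanog was at 384, 306 and 271 CPM in E14_ESC and 276 and 365 in TG2A_ESC, so the sets overlapped. Among 16 naive pluripotency genes, 3 were higher in TG2A_ESC (18.8%, against 13.1% of all genes): Nr0b1 (-1.27), an orphan nuclear receptor gene, the Krueppel-like factor gene Klf5 (-0.70) and Mylpf, a fast-muscle myosin light chain gene. Mylpf had 7.13, 4.9 and 6.64 CPM in E14_ESC and 15.3 and 50 in TG2A_ESC (log2 difference -2.39, standard error 0.34, adjusted p = 0.000165). Of 15 formative and primed genes 2 were called (13.3%), at about the share of all genes higher in TG2A_ESC: the forkhead gene Foxd3 (-1.14) and Sox3 (-1.71) were higher in TG2A_ESC, while Otx2 was at 37.3 to 47.8 CPM in E14_ESC and at 34.3 and 9.49 in TG2A_ESC and was not called.

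Signalling lists had shares of called genes at or below the 24.3% of all genes, so the genes named here describe single genes and not their pathways. The counts were 3 of 19 in the ERK list (15.8%), 3 of 13 in the LIF and STAT3 list (23.1%), 3 of 14 in the Nodal and BMP list (21.4%) and 2 of 11 in the Wnt list (18.2%). Myc, a target of both LIF and growth factor signals, had 38.2, 30.5 and 31.2 CPM in E14_ESC and 71.2 and 93.3 in TG2A_ESC (log2 difference -1.31, standard error 0.17, adjusted p = 9.43e-05). Phlda1, another ERK-responsive gene, differed by -1.85 and the immediate early gene Ier2 by -0.71. Gbx2, a STAT3 target in ESCs, was higher in TG2A_ESC (-1.27), as was Bcl3 (-0.53), while the LIF co-receptor gene Il6st was higher in E14_ESC (0.59). Bmp4, whose product supports self-renewal in serum, had 12.6, 13.4 and 17.8 CPM in E14_ESC and 34.6 and 58.4 in TG2A_ESC (log2 difference -1.67, standard error 0.28, adjusted p = 0.000501). The BMP target Id1 differed by -1.44, and Skil, a repressor in the Nodal pathway, was higher in E14_ESC (0.97). Of the Wnt response list, Rnf43 (1.57), which restrains Wnt receptors, and Tcf7 (0.76) were higher in E14_ESC. Phlda1, Myc, Gbx2 and Bmp4 were called both with the length trend removed and without TG2A_ESC replicate 2.

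Hypoxia genes were higher in E14_ESC. Of 20 genes of the hypoxia response, 9 were higher in E14_ESC and none in TG2A_ESC, with a median of 0.67 against 0.01 for all genes. Egln3, an oxygen-dependent hydroxylase that is itself a HIF target, had 38.2, 50.8 and 52.1 CPM in E14_ESC and 12.9 and 8.6 in TG2A_ESC (log2 difference 2.13, standard error 0.54, adjusted p = 0.00909). Bnip3, a mitophagy gene, had 89, 107 and 97 CPM in E14_ESC and 33.1 and 24.5 in TG2A_ESC (log2 difference 1.76, standard error 0.40, adjusted p = 0.00426). The sets did not overlap in either gene, as in 4225 of the 4271 called genes.

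Ndrg1 (1.65), the transcriptional repressor gene Bhlhe40 (1.63), the secreted hormone gene Stc2 (1.35), Ankrd37 (1.09), the collagen hydroxylase gene P4ha2 (0.87), the angiogenic factor gene Vegfa (0.64) and Mxi1 (0.57), a Myc antagonist, were the other 7, as log2 differences. Not all hypoxia genes took part. Car9 was at 0.478 to 0.659 CPM in E14_ESC and 0.833 and 1.57 in TG2A_ESC, and Kdm3a, Ak4, Gys1 and Fam162a had log2 differences between -0.07 and 0.12. The same 9 genes were called with the length trend removed, when the median was 0.70. Without TG2A_ESC replicate 2 only P4ha2 and Bhlhe40 of the 9 passed, and the 9 log2 differences ran from 0.42 to 2.02. Without replicate 1, 5 passed.

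HIF factors bind a short core motif in DNA. The letters ACGTG on either strand (CACGT when read on the other) were searched. The windows were the 250 bases before each start in RefSeq (GRCm38.p6). Other forms of the motif were neither searched nor marked, and the counts below leave them out. The promoters of 3 called members that hold ACGTG are shown, 5′ to 3′ on the strand of the gene, with the letters searched in capitals. They are chr7:138909507-138909756 (minus strand) for Bnip3, chr12:54203875-54204124 (minus strand) for Egln3 and chr8:45999851-46000100 (minus strand) for Ankrd37. The motif and these promoters were chosen after matches had been seen.
Bnip3: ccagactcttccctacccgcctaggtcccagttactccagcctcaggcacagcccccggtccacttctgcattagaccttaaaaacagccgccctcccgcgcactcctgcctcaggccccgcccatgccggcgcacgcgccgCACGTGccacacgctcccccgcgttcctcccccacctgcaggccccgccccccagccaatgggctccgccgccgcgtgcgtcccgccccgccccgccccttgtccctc
Egln3: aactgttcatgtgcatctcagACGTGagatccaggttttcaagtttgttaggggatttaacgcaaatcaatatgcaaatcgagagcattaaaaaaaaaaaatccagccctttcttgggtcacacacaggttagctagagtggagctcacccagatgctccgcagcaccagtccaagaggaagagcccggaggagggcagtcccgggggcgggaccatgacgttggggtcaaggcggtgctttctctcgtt
Ankrd37: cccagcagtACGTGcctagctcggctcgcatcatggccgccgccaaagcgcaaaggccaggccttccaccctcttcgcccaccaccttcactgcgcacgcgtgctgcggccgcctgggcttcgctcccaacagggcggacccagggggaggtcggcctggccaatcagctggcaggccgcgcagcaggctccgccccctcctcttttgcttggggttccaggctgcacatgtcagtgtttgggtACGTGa

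In Bnip3 the 2 matches overlap in the palindrome CACGTG, Egln3 holds 1 match, and Ankrd37 holds 2, near either end of the window. Of the 20 hypoxia genes, 16 had a promoter entry, and 10 of these held the motif before at least 1 start. They were 6 of the 7 called members with an entry and 4 of the 9 others, among them Car9 and Egln1. Over all genes with an entry, 4998 of 27025 (18.5%) held it, and 16.6% of all 32851 windows did. A match describes the letters and not a bound site.

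Glycolytic genes followed the same direction in part. Of 25 genes of glycolysis and glucose transport, 8 were higher in E14_ESC and none in TG2A_ESC, with a median of 0.29. Pfkp, a subunit of the rate-setting phosphofructokinase, had 508, 554 and 439 CPM in E14_ESC and 239 and 138 in TG2A_ESC (log2 difference 1.41, standard error 0.26, adjusted p = 0.00107). The aldolase gene Aldoc had 23.9, 33.2 and 29.1 CPM in E14_ESC and 11 and 9.17 in TG2A_ESC (log2 difference 1.51, standard error 0.33, adjusted p = 0.00315). The lactate exporter gene Slc16a3 (1.16) and Pfkfb3 (1.03), which makes an activator of phosphofructokinase, were also higher in E14_ESC. The most abundant members did not pass: Gapdh was at 4490 to 5190 CPM in E14_ESC and at 4670 and 6650 in TG2A_ESC, and Pkm, Eno1 and Aldoa had log2 differences of 0.13, 0.17 and 0.29. After removal of the length trend 8 were again called, with Ldha in place of Pfkl. Without TG2A_ESC replicate 2, Hk1, Pfkl and Pfkp passed.

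**Figure D4:**
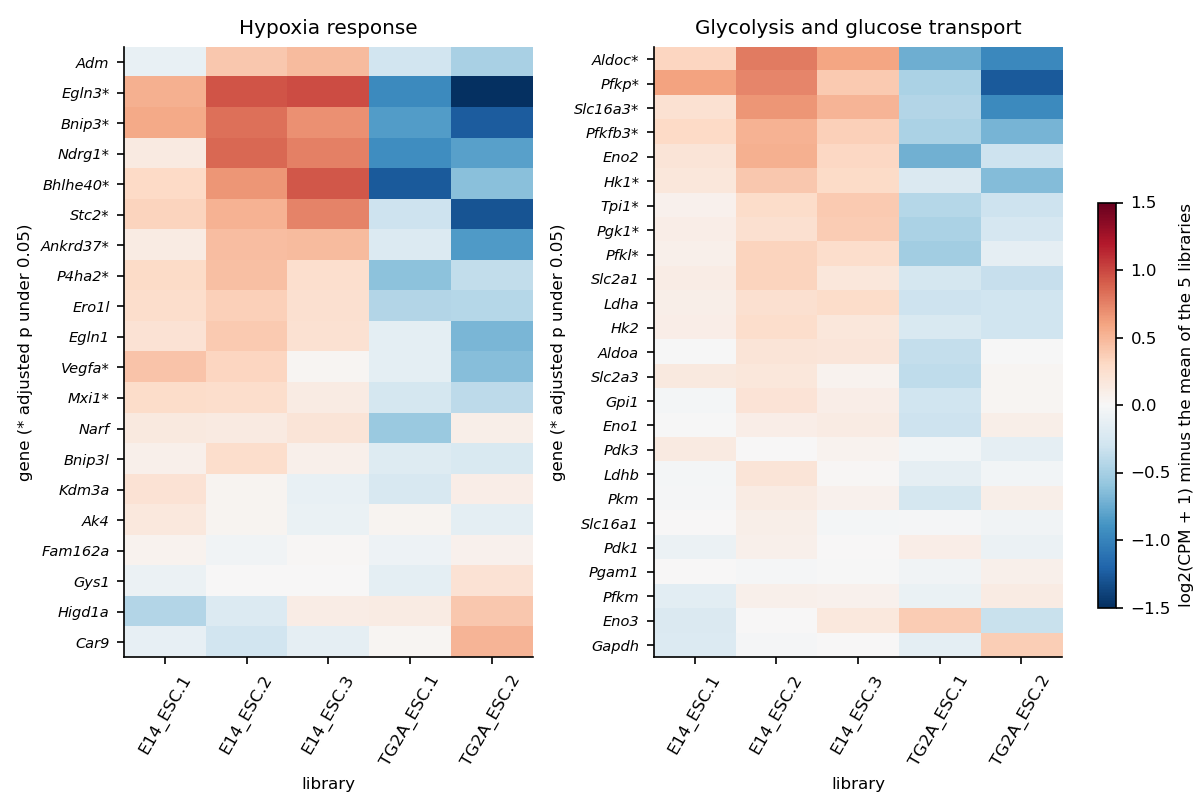
Level of the 20 hypoxia and 25 glycolysis genes in the 5 libraries, as log2(CPM + 1) minus the mean of the 5 libraries (red above, blue below), ordered by log2 difference with a star at an adjusted p under 0.05. Starred genes such as Egln3, Bnip3, Aldoc and Pfkp are red in all 3 E14_ESC columns and blue in both TG2A_ESC columns; Gapdh and Car9 at the bottom are not.

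Respiratory chain genes were higher in TG2A_ESC, and fewer of them were with the length trend removed. Of 34 nuclear genes of oxidative phosphorylation, 24 were higher in TG2A_ESC and none in E14_ESC, with a median of -0.48. Their median length was 1312 nt against 2530 nt for all tested genes. Once the length trend was removed 10 were higher in TG2A_ESC and 1, Uqcrfs1, was higher in E14_ESC, with a median of -0.21. Cox7a2, a subunit of cytochrome oxidase, had 14.6, 15.4 and 19.6 CPM in E14_ESC and 33.6 and 48.1 in TG2A_ESC, a log2 difference of -1.30 (adjusted p = 0.000125) that was -0.78 (adjusted p = 0.0028) with the trend removed. The complex I subunit genes Ndufb8 (-0.98) and Ndufb10 (-0.91) and the ATP synthase gene Atp5g1 (-0.80) also passed in both fits. Ndufa4 had a log2 difference of -0.62 that became 0.08.

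Of the 13 protein genes of the mitochondrial genome, 7 were higher in TG2A_ESC, with a median of -0.66. The largest differences lay in the shortest genes. The ATP synthase gene mt-Atp8, 204 nt long, had 4.97, 5.32 and 13.2 CPM in E14_ESC and 67.2 and 76.4 in TG2A_ESC (log2 difference -3.16, standard error 0.41, adjusted p = 8.7e-05). The complex I genes mt-Nd3 and mt-Nd4l differed by -2.34 and -2.39. By contrast mt-Co1, the most abundant, had 8690 to 11700 CPM in E14_ESC and 10700 and 11400 in TG2A_ESC. After removal of the length trend 4 were higher in TG2A_ESC and mt-Co2 was higher in E14_ESC (2.27, adjusted p = 0.0287). Some of these values are uncertain, because mt-Atp8 overlaps mt-Atp6 and mt-Nd4l overlaps mt-Nd4, and the nuclear genome holds copies of mitochondrial genes. In E14_ESC replicate 2 mt-Co3 had 0.0598 CPM, against 89.1 and 177 in the other 2. The ribosomal RNA gene mt-Rnr1 differed by -1.33.

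Some lipid synthesis genes were higher in E14_ESC. Of 13 fatty acid synthesis genes 5 were higher in E14_ESC and none in TG2A_ESC. Of 25 genes of cholesterol synthesis and uptake 6 were higher in E14_ESC and none in TG2A_ESC. Over all genes, 11.2% were higher in E14_ESC and 24.3% were called in either direction, and the cholesterol share lay near the latter. Scd1, a stearoyl-CoA desaturase, had 125, 142 and 149 CPM in E14_ESC and 64.5 and 35.8 in TG2A_ESC (log2 difference 1.47, standard error 0.25, adjusted p = 0.000543), and its relative Scd2 differed by 1.29. Srebf1, which encodes a regulator of lipid genes, had 92, 115 and 97.6 CPM in E14_ESC and 59 and 64.5 in TG2A_ESC (log2 difference 0.72, standard error 0.13, adjusted p = 0.000974). These 3 genes also passed with the length trend removed and without TG2A_ESC replicate 2. The carboxylase gene Acaca differed by 0.62 but by 0.07 with the trend removed.

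Among the cholesterol genes, Stard4, a sterol transporter gene, had 73.9, 82.4 and 78.5 CPM in E14_ESC and 48.3 and 36.6 in TG2A_ESC (log2 difference 0.88, standard error 0.21, adjusted p = 0.0053). The feedback gene Insig1 (0.88) and Dhcr7 (0.72), an enzyme of the last steps, were also higher in E14_ESC. Without TG2A_ESC replicate 2 none of the cholesterol genes passed by edgeR (6 had an unadjusted p under 0.05, and DESeq2 was not run there). Once the length trend was removed 4 passed, a share near the 15.0% of all genes called in that fit. There the fatty acid synthase gene Fasn was called higher in TG2A_ESC (-0.59).

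Among stress lists, chaperones and antioxidant genes were higher in TG2A_ESC as fitted, and fewer antioxidant genes were called with the length trend removed. Of 12 heat shock genes 5 were higher in TG2A_ESC, led by Hspb1, a small heat shock protein gene with 242, 257 and 259 CPM in E14_ESC and 421 and 791 in TG2A_ESC (log2 difference -1.26, standard error 0.36, adjusted p = 0.0183). The mitochondrial chaperone gene Hspe1 (-0.98), its partner Hspd1 (-0.51) and Chordc1 (-0.59) passed in the fit with the length trend removed as well, and Hspb1 did not. Of 15 genes of the unfolded protein response, 6 were higher in TG2A_ESC, among them Manf (-0.68), Xbp1 (-0.68) and the calcium-binding chaperone gene Calr (-0.64), and Sel1l was higher in E14_ESC (0.43). With the length trend removed Manf (-0.46) and Calr (-0.57) passed and Xbp1 did not (-0.44, adjusted p = 0.185). Without TG2A_ESC replicate 2 the log2 differences of Manf, Xbp1 and Calr were -0.53, -0.40 and -0.25.

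Of 14 antioxidant genes 6 were higher in TG2A_ESC, with Nqo1 (-1.21), a quinone reductase, and the ferritin gene Ftl1 (-0.91) in front. With the length trend removed the called share of the list was near the 15.0% of all genes in that fit. Nqo1 and G6pdx were the 2 called after removal of the length trend, and without TG2A_ESC replicate 2 none was by edgeR, with 2 at an unadjusted p under 0.05. Of 18 p53 response genes, Trp53inp1 (0.84), Eda2r (0.66), Bbc3 (0.61) and Zmat3 were higher in E14_ESC and Bax was higher in TG2A_ESC (-0.55), a called share near the 24.3% of all genes. Trp53inp1 (0.53, adjusted p = 0.126) and Bax (-0.12, adjusted p = 0.553) were not called with the length trend removed. Of 25 amino acid response genes 3 were called (12%, below the share of all genes), of which 2 were higher in E14_ESC, the lipoprotein receptor gene Vldlr (2.18) and Ddit4 (1.65), an inhibitor of mTOR signalling that low oxygen also induces, while the arginine transporter gene Slc7a3 was higher in TG2A_ESC (-0.68).

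Cell cycle and adhesion genes differed as follows. Cdkn2a, which encodes the INK4a and ARF inhibitors, had 3.17, 2.81 and 3.73 CPM in E14_ESC and 14.1 and 16.6 in TG2A_ESC (log2 difference -2.23, standard error 0.40, adjusted p = 0.000807). The cyclin gene Ccnd3 (-0.83) and the kinase gene Cdk4 (-0.64) were higher in TG2A_ESC as well, in a list in which 7 of 22 genes were higher there and the proliferation marker Mki67 (0.61) was higher in E14_ESC. Mki67 had a log2 difference of 0.03 with the length trend removed. Among 19 adhesion genes the E-cadherin gene Cdh1 and the claudin genes Cldn3 (1.69) and Cldn4 (1.32) were higher in E14_ESC. The keratin gene Krt19 (1.58) was too, with 8.68, 15.9 and 21.2 CPM in E14_ESC and 8.01 and 2.25 in TG2A_ESC. Its log2 difference without TG2A_ESC replicate 2 was 0.95. Cdh1 had 578, 620 and 589 CPM in E14_ESC and 461 and 343 in TG2A_ESC (log2 difference 0.57, standard error 0.11, adjusted p = 0.00148). Snai1, a repressor of Cdh1, was higher in TG2A_ESC (-0.96), as was the integrin gene Itga5 (-0.73), and neither was called without TG2A_ESC replicate 2.

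Of 26 Polycomb subunits 4 were called (15.4%), a share below that of all genes (24.3%). Epop and Eed were higher in TG2A_ESC and Phc3 and Ezh1 in E14_ESC. Epop, an accessory subunit that links PRC2 to elongin, had 201, 194 and 148 CPM in E14_ESC and 420 and 480 in TG2A_ESC (log2 difference -1.31, standard error 0.17, adjusted p = 7.71e-05). Eed, the subunit that binds the H3K27me3 mark, had 186, 181 and 189 CPM in E14_ESC and 315 and 358 in TG2A_ESC (log2 difference -0.86, standard error 0.14, adjusted p = 0.00044). Phc3 (0.98), a PRC1 subunit, went the other way, and Ezh1, the homologue of Ezh2, differed by 0.68. Epop, Eed and Phc3 were called in both other fits. With the length trend removed 6 of the 26 subunits were higher in TG2A_ESC, a share above the 8.57% of all genes in that fit.

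Hox genes, classic Polycomb targets, were near zero: the list summed to 12.4 to 14.2 CPM in E14_ESC and 15.2 and 22.6 in TG2A_ESC. The 4 of 33 called, all higher in TG2A_ESC, were Hoxa4, Hoxa7, Hoxa10 and Hoxd13. That share is near the 13.1% of all genes that were higher in TG2A_ESC, so it describes single genes and not the list. Hoxa4 rested on 2, 2 and 0 counts in E14_ESC and on 8 and 14 in TG2A_ESC, and no Hox gene was called by edgeR without TG2A_ESC replicate 2, where 4 of 34 had an unadjusted p under 0.05.

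Of 10 DNA methylation genes, the demethylating enzyme genes Tet1 (0.99) and Tdg (0.50) were higher in E14_ESC, and Dnmt3l (-0.97), a cofactor of de novo methylation, and Trim28 (-0.67) were higher in TG2A_ESC. Tet1 is long, at 14180 nt, and its log2 difference was 0.27 (adjusted p = 0.262) with the length trend removed. Of 27 imprinted genes 6 were called (22.2%, near the share of all genes). Mest, expressed from the paternal allele, had 12.9, 10.2 and 12.8 CPM in E14_ESC and 44.6 and 22.5 in TG2A_ESC (log2 difference -1.49, standard error 0.38, adjusted p = 0.00939). Igf2r (0.97) and Peg3 (0.91), both long, were higher in E14_ESC and not called with the trend removed, and Phlda2 (-0.55), a short gene, likewise. Xist, the long RNA of X inactivation, was at 5.71 to 10.1 CPM in E14_ESC and 3.33 and 4.04 in TG2A_ESC, a difference that was called (1.1, adjusted p = 0.0275) and was lost with the trend removed (0.26, adjusted p = 0.623).

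The remaining lists had shares of called genes below the 24.3% of all genes, from 5.88 to 22.7%. Of 22 lysosome and autophagy genes, 3 were higher in E14_ESC, led by the membrane protein gene Lamp2 (0.78), and 2 in TG2A_ESC, led by the protease gene Ctsl (-0.74). Of 19 interferon and antigen presentation genes, Stat2 (0.78) was higher in E14_ESC. The RNA sensor gene Ddx58 (-0.92) and the class I genes H2-D1 (-0.74) and H2-K1 (-0.46) were higher in TG2A_ESC. H2-D1 had 10.5, 11.4 and 11.6 CPM in E14_ESC and 11.7 and 25.6 in TG2A_ESC, and differed by -0.06 without TG2A_ESC replicate 2. Neither class I gene was called with the length trend removed (adjusted p = 0.0726 and 0.329). The actin-binding gene Vcl (0.81) was the 1 gene called of 17 in the serum, YAP and actin list. Of 16 germline genes, Rpl10l (0.52), a retrocopy of a ribosomal protein gene and so uncertain, and Mael (-0.88), of the piRNA pathway, were called.

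The largest differences, taken from genes that averaged 10 CPM or more in one set and whose sets did not overlap, did not fall in these lists alone. Higher in TG2A_ESC were Islr2, mt-Atp8, Lgals3, Atp5k, Cntfr, Rps29, Tex13b, Irak3 and the pseudogene Llph-ps2, with 1 predicted model. Islr2, a leucine-rich repeat membrane protein gene, had 6.65, 4.42 and 3.1 CPM in E14_ESC and 29.8 and 71.9 in TG2A_ESC (log2 difference -3.45, standard error 0.70, adjusted p = 0.0021). Irak3, an inhibitor of Toll-like receptor signalling, had 3.71, 1.97 and 2.5 CPM in E14_ESC and 8.74 and 21.5 in TG2A_ESC (log2 difference -2.47). Lgals3, which encodes galectin 3, had 7.13 to 8.55 CPM in E14_ESC, 9.31 in TG2A_ESC replicate 1 and 103 in replicate 2, so its log2 difference of -2.81 came from 1 library, and without it was -0.22. Atp5k, Rps29 and Llph-ps2 are 393 nt long or shorter, and a ribosomal protein gene or pseudogene can share reads with near-identical copies, so these counts are uncertain.

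Higher in E14_ESC were Slfn9, Ndufa4l2, Fat2, Abcg1, Frem2, Atp7a, Neb and Egln3, with 2 predicted models. Slfn9, a Schlafen family gene, had 18.6, 31.3 and 27.3 CPM in E14_ESC and 4.63 and 0.681 in TG2A_ESC (log2 difference 3.27, standard error 0.59, adjusted p = 0.0011). Ndufa4l2, a known HIF target that was not on the hypoxia list, had 7.9, 9.39 and 14.7 CPM in E14_ESC and 1.72 and 1.36 in TG2A_ESC (log2 difference 2.79, standard error 0.57, adjusted p = 0.0022). Atp7a, a copper transporter gene, had 21.1, 20.8 and 18.7 CPM in E14_ESC and 5.31 and 3.67 in TG2A_ESC (log2 difference 2.17, standard error 0.20). Abcg1, a cholesterol efflux transporter gene, differed by 2.30, the matrix gene Frem2 by 2.17 and the atypical cadherin gene Fat2 by 2.36. Each of Slfn9, Ndufa4l2, Atp7a, Abcg1, Frem2 and Fat2 was called with the length trend removed and without TG2A_ESC replicate 2. Neb, whose transcript has 21460 nt, was called in neither.

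By chromosome, only the mitochondrial genome lay more than 0.3 from the median of all genes, at -0.66 over 15 genes. Chromosome 1 was the farthest of the nuclear chromosomes, with a median of 0.16 over 1032 genes. The Y chromosome stood at 0.08 over 19 genes and the X at 0.07 over 624, against 0.01 for all genes.

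Against other groups of the series, E14_ESC correlated more closely with the rescued cells than TG2A_ESC did. Pearson correlations of log2(CPM + 1) with the rescued libraries were 0.990 to 0.994 for E14_ESC and 0.972 to 0.985 for TG2A_ESC. With the Ezh2-null libraries they were 0.954 to 0.958 for E14_ESC and 0.967 to 0.969 for TG2A_ESC. These correlations are across genes, which are not independent, and the length index above moves with them.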

How the data were processed

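RNA-seq was measured in 22 mouse libraries, of which the 3 E14_ESC and 2 TG2A_ESC libraries are compared. The authors deposited estimated counts per gene symbol. Trim Galore, the aligner STAR (2.7.6a), DESeq2 and the build mm10 are listed in the submitters' processing notes. For the counting tool, the annotation and strandedness nothing is given in the sources used here, so overlapping and near-identical genes are uncertain. The labels give the molecule as polyA RNA and the kit as rRNA depletion, which do not match. The plan assumed whole counts, and the values, 27 to 37.2% of counts in fractional entries of these libraries, were rounded.

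Genes passing filterByExpr were fitted with edgeR 4.0.16 (quasi-likelihood, TMM scaling) in R 4.3.3 over all 22 libraries, 1 coefficient per group, 12 residual degrees of freedom; the length index uses 10747 genes. The contrast E14_ESC minus TG2A_ESC was adjusted by Benjamini-Hochberg and called under 0.05. CPM uses scaled library sizes. Standard errors are the log2 difference divided by the root of the F statistic.

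The members and the 40 gene lists were chosen with earlier results of these data known. Named genes are 13 landmark genes, up to 4 called members per list with the largest difference, the 10 largest differences each way, and up to 5 called genes of a chromosome beyond 0.3. Any other list member named was chosen after its values were seen. Alternatives were RLE scaling, no filter, only the 5 libraries, DESeq2 1.42.0, a replicate block and each library left out. Removal of a smooth length trend (lowess span 0.3; median length over GENCODE M21 basic transcripts, GRCm38, known for 97.9% of tested genes), of length and GC trends, and of length without a TG2A_ESC library were added after the data were seen. The length was first taken as the longest transcript and changed after that fit was seen. The fit was tested on simulated data. 1 gene that the rule names is not reported here.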

Additional observations from a re-analysis of the deposited data

How the results depend on the processing

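Of 4271 calls (1972 higher in E14_ESC, 2299 in TG2A_ESC; 603 and 435 at least 2-fold), DESeq2 gave 4713, RLE scaling 4258 and only the 5 libraries 3926. Without the filter there were 4182 calls, but edgeR then replaced the spread of each gene by the trend (infinite prior degrees of freedom, against 4.17 to 5.44 in the other fits without trend removal), so this count says nothing about stability. Leaving out 1 library gave 1675 to 4090 calls, 749 to 2038 and 926 to 2052 by direction, and 183 to 904 and 180 to 573 at least 2-fold, each lowest without TG2A_ESC replicate 2. The replicate block gave 3734 calls. Deviations of same-numbered libraries correlated weakly (r of 0.085 and -0.068). With 2 TG2A_ESC libraries their deviations mirror each other, so this check cannot show whether the numbers are pairs. With the length trend removed there were 2640 calls (1137 and 1503; 247 at least 2-fold higher in TG2A_ESC), with length and GC trends removed 2720 (1162; 244), and with the longest transcript as length 2624 (1092 and 1532; 251). With the length trend removed and without TG2A_ESC replicate 2 there were 691 (244 and 447; 90 and 71 at least 2-fold), and without replicate 1 there were 1256 higher in E14_ESC. Lists with a called gene fell from 34 to 19 with the trend removed and without TG2A_ESC replicate 2. The number of chromosomes beyond 0.3, 1 in the fit, was 0 there and 0 with the longest transcript, and 2 with only the 5 libraries, where the 11 Y genes had a median of 0.31. Of 130 named genes that were called, 77 were no longer called without TG2A_ESC replicate 2 and 31 with the length trend removed. A change of sign is counted here only for genes called in either fit. Apoe ran from -2.29 to 0.5 with 1 library left out and changed sign without TG2A_ESC replicate 2, and Phlda2 with the longest transcript (0.04). With the length trend removed and without TG2A_ESC replicate 2, Apoe (0.79), Acaca (-0.05), Bax (0.14), Ftl1 (0.18), Gsta4 (0.07), Prdx1 (0.01), H2-D1 (0.02), Phlda2 (0.14), Mki67 (-0.19), Npc1 (-0.01) and Lgals3 (0.03) did, none of them called. The cause of these moves was not tested. Some named genes rest on few counts, such as Sox17 with 3 to 7 in E14_ESC and Hoxa4 with 0 to 14 over the 5 libraries.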
